A study of Mus musculus with 4 samples.

Results

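Among the genes of the T cell antigen receptor, 8 variable (V) segments could be read on the arrays: 5 of the alpha chain, 1 of the beta chain and 2 of the gamma chain. They were all the genes whose symbol follows the naming of receptor segments among 22180 genes with a probe set that carries 1 symbol in the platform annotation. A probe set is a group of array probes summarised to 1 value. The members rested on 21 of 23521 such probe sets, and each gene is given by its brightest probe set, ranked on the mean of the 4 arrays. Constant, joining and delta segments had 0 members and were not analysed here. A RefSeq gene table of GRCm38.p6 names 266 segments under the same rule, so these 8 are a small sample of the loci.

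Each array measured RNA of one T cell population from C57BL/6 mice at 8 weeks of age. Natural Th1 cells (nTh1) were thymocytes of CIITAtg mice sorted as CD4+, CD62L+ and CXCR3+. Classic Th1 cells (cTh1) were wild-type splenic CD4+CD62Lhi cells stimulated for 5 days by beads against CD3 and CD28, with 2 ng/ml of IL-12, 50 U/ml of IL-2 and IL-4 blocked by an antibody. TT naive cells were CXCR3- thymocytes of CIITAtg mice that carried CD4 and CD62L, and the naive cells were CD4+CD62Lhi cells of wild-type spleen. CIITAtg names a transgene of CIITA, the master regulator of MHC class II genes. The sources used here do not give its promoter or the number of animals behind each array. Because each population had 1 array, differences carry no replicate check and no p-values.

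T cells recognise antigen with a receptor of 2 chains, alpha with beta or gamma with delta, which CD3 proteins join to the signalling machinery. A developing thymocyte builds each chain by joining 1 of many V segments to a joining segment, with a diversity segment between them in beta and delta chains. The RAG recombinase cuts the DNA, the terminal transferase adds bases at the joints, and splicing brings in the constant segment. Nearly all CD4 T cells carry alpha and beta chains. Unrearranged V segments can also be transcribed, and a V probe set does not tell the 2 kinds of transcript apart.

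The values are log2 summaries made by the submitters with RMA, which gives the arrays a common distribution, and array medians lay between 6.52 and 6.70. Genes below 6.61 (the median of all values) on both arrays of a comparison were left out of its counts, and the rest were counted at a 2-fold difference or more. The labels were checked against genes of the sort. Cd4 lay between 12.33 and 12.72 on all arrays. Cxcr3 was at 9.91 in nTh1 cells and 7.76 in TT naive cells. The array labelled naive had Cxcr3 at 9.80 and Zbtb16 (PLZF, a transcription factor of innate-like T cells) at 12.23, both against its label as naive T cells. Zbtb16 was at 9.88 in nTh1, 7.31 in cTh1 and 9.36 in TT naive, so both thymic arrays also stood above cTh1. Tbx21, which encodes the Th1 factor T-bet, was at 7.92 in nTh1, 11.25 in cTh1, 7.11 in TT naive and 9.81 on the array labelled naive. It was thus higher on that array than in nTh1. The Y-linked Eif2s3y was at 5.16 in nTh1, 4.97 in cTh1, 8.55 in TT naive and 8.61 on the array labelled naive, with Xist between 12.56 and 13.25 on all 4. Comparisons of nTh1 or cTh1 with TT naive or the array labelled naive thus also differ in Y-linked signal. A part of the animals' sex cannot be told apart in them. Every direction that involves the array labelled naive depends on that label.

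The widest differences were in the gamma segments, which were highest on the array labelled naive. Trgv6 and Trgv5 are neighbouring V segments of the gamma locus. In the mouse, Trgv6 is used by IL-17-producing γδ T cells and Trgv5 by the γδ T cells of the epidermis. Trgv6 was at 6.33 in nTh1, 6.31 in cTh1, 6.55 in TT naive and 8.03 on the array labelled naive. The array labelled naive stood above the level filter, and the other 3 arrays stood below it within 0.24 of each other. Trgv5 was at 4.78 in nTh1, 4.91 in cTh1, 5.12 in TT naive and 6.30 on the array labelled naive. It kept below the filter on all 4 arrays, and the 3 other arrays spanned 0.34.

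Against the array labelled naive, Trgv6 was lower by a log2 difference of -1.72 in cTh1 (3.29-fold), -1.48 in TT naive (2.79-fold) and -1.69 in nTh1 (3.24-fold). The lower value lay under the level filter each time, so these folds rest on dim signal. These comparisons share 1 array and are not independent of each other. The one error that could be measured was how far probe sets of one gene differ from each other, with an SD of 0.387, 0.313 and 0.386 in the 3 comparisons. That SD holds nothing of the variation from animal to animal or from array to array. Trgv6 passed the level filter only through the array labelled naive, where it was high, so its count at 2-fold, as the 1 member in each of them, is a description and no support. Of all genes, 3.35% were at least 2-fold lower in cTh1, 2.59% in TT naive and 4.43% in nTh1 than on the array labelled naive. Trgv5 differed by -1.39 in cTh1, -1.19 in TT naive and -1.52 in nTh1, and entered no count because it lay below the filter. With a loess trend removed, its difference for TT naive was -0.87, under 2-fold. In bulk RNA, more cells with a transcript and more of it per cell cannot be told apart.

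Without the array labelled naive, the gamma segments differed by no more than 0.34 in size between any 2 arrays as deposited. Trgv6 differed by -0.21 for nTh1 over TT naive, 0.03 for nTh1 over cTh1 and -0.24 for cTh1 over TT naive. Trgv5 differed by -0.34, -0.13 and -0.20 in the same order, and by -0.51, -0.14 and -0.57 with a loess trend removed, where Trgv6 differed by -0.28, 0.06 and -0.37.

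**Figure D1:**
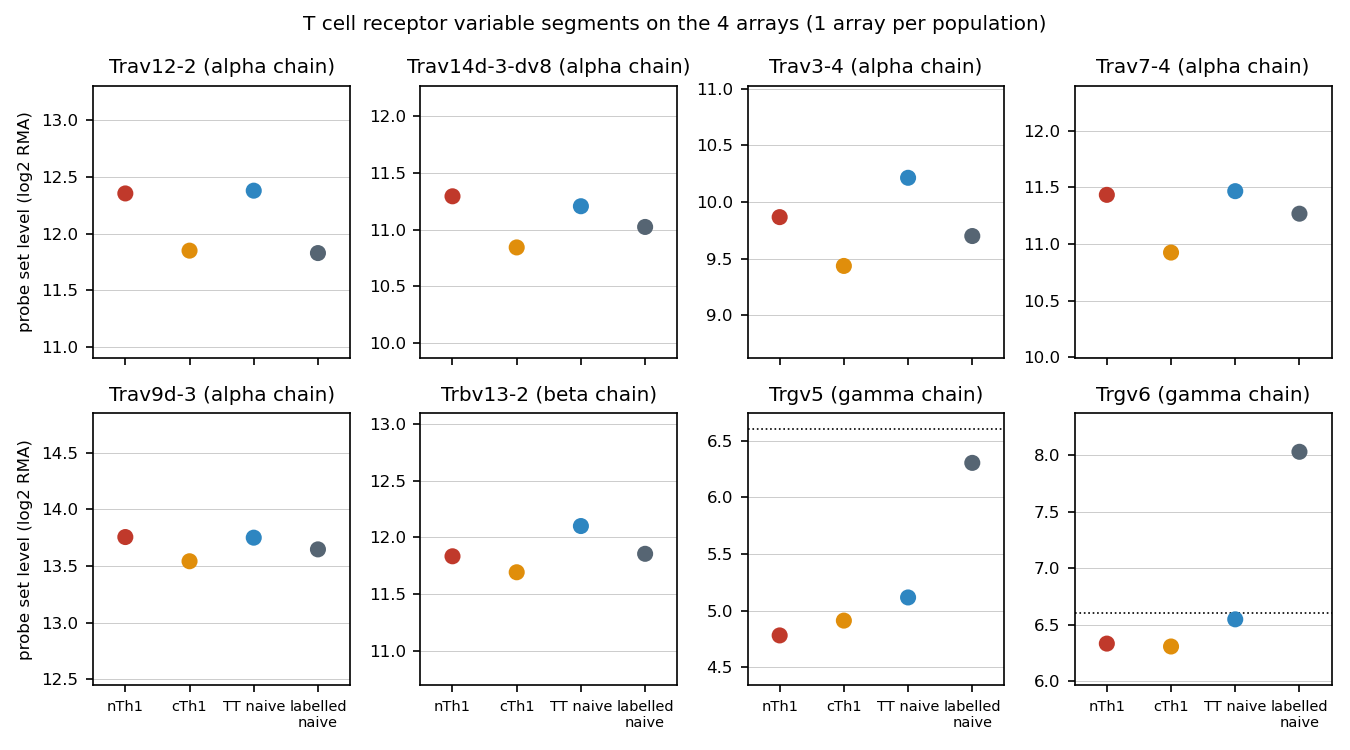
Level of each of the 8 V segments (log2 RMA, vertical axis) on the 4 arrays (horizontal axis, 1 point per array). Every panel spans the same number of log2 units around its own gene, and the dotted line is the median of all values, 6.61. Trgv6 and Trgv5 stand out on the array labelled naive at 8.03 and 6.30, while cTh1 has the lowest point for Trav14d-3-dv8, Trav3-4, Trav7-4, Trav9d-3 and Trbv13-2.

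Markers of γδ T cells did not all follow the gamma segments. Of 10 listed, 8 had a probe set, and Trdc, the delta constant segment, was not analysed here. On the array labelled naive 4 of these 8 had their highest value, as did 27.1% of all 22180 genes. This list too was chosen with earlier results of these data known. Sox13, a factor of IL-17-producing γδ cells, was at 7.46 in nTh1, 7.38 in cTh1, 7.42 in TT naive and 7.93 on the array labelled naive. Cd163l1, a scavenger receptor of γδ cells, was at 7.41, 7.47, 7.66 and 7.91 in the same order, and Maf at 7.45, 8.53, 7.39 and 8.70. Il17a, the cytokine itself, lay between 5.27 and 5.78, below the median of all values on every array. Blk, Il23r and Etv5 were highest in cTh1, at 7.57, 6.61 and 8.86, and 5830411N06Rik in nTh1, at 6.51. The mean level of the list was 6.74 in nTh1, 7.28 in cTh1, 6.59 in TT naive and 7.09 on the array labelled naive, with 5 of 8 above the level filter on each.

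Part of a list of innate-like T cell genes was highest on the same array as the gamma segments. All 10 listed were measured, and 5 were highest on the array labelled naive: Zbtb16, Il17rb, Il4, Xcl1 and Klrb1c, beside 27.1% of all genes. The list was chosen with earlier results of these data known, so this count is a description and no support. Il17rb, a chain of the IL-25 receptor, was at 8.98 in nTh1, 5.73 in cTh1, 10.33 in TT naive and 11.23 on the array labelled naive. Il4 was at 6.48, 6.04, 7.39 and 8.99 in that order. The list mean was 8.79 in nTh1, 8.22 in cTh1, 8.14 in TT naive and 9.83 on the array labelled naive. Of the other 5, Eomes and Cd44 were highest in nTh1, and Klrd1, Tbx21 and Il2rb in cTh1. The part of other cells in the gamma values was not tested.

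**Figure D2:**
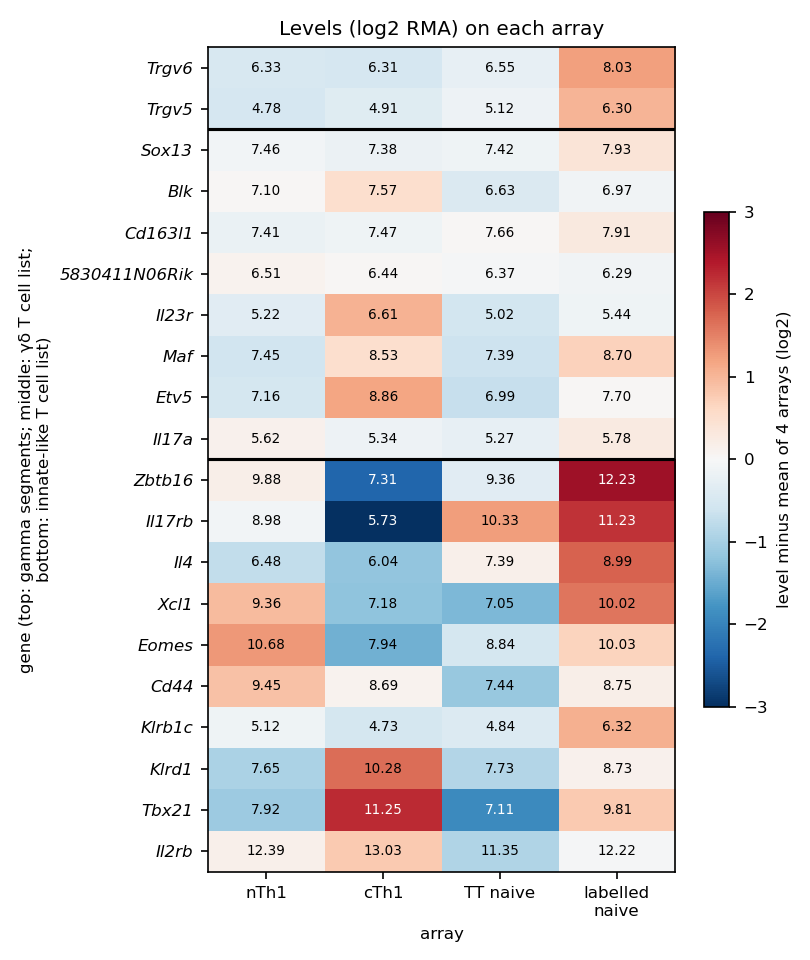
Log2 RMA level (number in each cell) of the gamma segments, the 8 measured γδ T cell markers and the 10 innate-like markers on the 4 arrays (columns). The colour is the level minus the mean of the gene over the 4 arrays. Both gamma segments, Zbtb16, Il17rb and Il4 are darkest red on the array labelled naive, while Etv5 and Il23r are reddest in cTh1.

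The alpha segments were high on every array and, Trav12-2 apart, lowest in cTh1 cells, by less than 2-fold at the probe sets used. Trav12-2 was at 12.35 in nTh1, 11.85 in cTh1, 12.38 in TT naive and 11.83 on the array labelled naive, so both thymic arrays stood above both arrays of splenic origin. Trav14d-3-dv8, a segment that can serve in alpha or delta chains, was at 11.29 in nTh1, 10.84 in cTh1, 11.21 in TT naive and 11.02 on the array labelled naive. Trav7-4 was at 11.43 in nTh1, 10.92 in cTh1, 11.47 in TT naive and 11.27 on the array labelled naive. For both, the thymic arrays were above the other 2 and cTh1 was the lowest. Trav3-4 was at 9.87 in nTh1, 9.43 in cTh1, 10.21 in TT naive and 9.70 on the array labelled naive. Trav9d-3 was at 13.76 in nTh1, 13.54 in cTh1, 13.75 in TT naive and 13.65 on the array labelled naive, the narrowest range among the 8 members, 0.21. The alpha locus repeats its V cluster, and 74 of the 130 alpha V segments in RefSeq carry the d or n of such copies in their name. Related copies can bind the same probes, so a single segment cannot be told from its relatives by these values.

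Between nTh1 and cTh1 cells, the differences of these 5 genes were 0.51 for Trav12-2 and Trav7-4, 0.45 for Trav14d-3-dv8, 0.43 for Trav3-4 and 0.21 for Trav9d-3. None reached 2-fold, where 3.46% of all genes were higher by that much in nTh1 and 8.3% lower. Only the 2 largest exceeded the probe set SD of this comparison, 0.489, which holds nothing of the variation between arrays. For cTh1 over TT naive cells, Trav3-4 differed by -0.78, Trav7-4 by -0.54, Trav12-2 by -0.53, Trav14d-3-dv8 by -0.36 and Trav9d-3 by -0.21. The SD between probe sets was 0.432, and 3.02% of all genes were at least 2-fold lower in cTh1 and 7.24% at least 2-fold higher.

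The direction was shared by the other probe sets of the alpha segments. The 18 alpha probe sets gave 16 distinct sets of values, because Trav12-2 has 4 probe sets that form 2 pairs with identical values on all arrays. Lower in cTh1 than in TT naive cells were 16 of 16 distinct probe sets, with a median of -0.47, beside 46.6% of all genes above the filter. Higher in nTh1 than in cTh1 were also 16 of 16, with a median of 0.37, beside 42.9% of all genes. Both counts were the same when arrays were centred on the median of all genes and when a loess trend was removed. Lower in cTh1 than on the array labelled naive were 15 of 16, with a median of -0.26, beside 52.3% of all genes. On 15 of the 16 the cTh1 array was the lowest of the 4, which was so for 29.8% of all probe sets with 1 symbol. On 11 of the 16 both thymic arrays stood above both arrays of splenic origin, beside 18% of all probe sets. Probe sets of one family share sequence and arrays, and the 16 are not independent readings.

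Other markers moved with the cTh1 array. Of 9 B cell markers 8 were measured, with a mean level of 7.79 in nTh1, 9.37 in cTh1, 7.03 in TT naive and 6.96 on the array labelled naive. The 3 CD8 T cell markers averaged 7.67, 10.67, 7.41 and 7.33 in that order. At least 2-fold above the array labelled naive in cTh1 were 7 of 8 B cell and all 3 CD8 markers. The share of all genes was 5.13%. These lists were chosen with earlier results of these data known, so the counts are a description. B cells do not carry a T cell receptor, whereas CD8 T cells carry alpha and beta chains. The CD3 subunits of the receptor were mixed. Cd3d and Cd3e were highest in cTh1, Cd3e at 13.11 against 12.88 to 12.95 on the other 3 arrays. Cd3g was lowest there, at 12.94 against 12.96 to 13.06. The part of other cells in the lower alpha values of cTh1 was not tested. Only the cTh1 cells were cultured and stimulated, for 5 days, so an effect of culture cannot be told apart from one of the population.

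**Figure D3:**
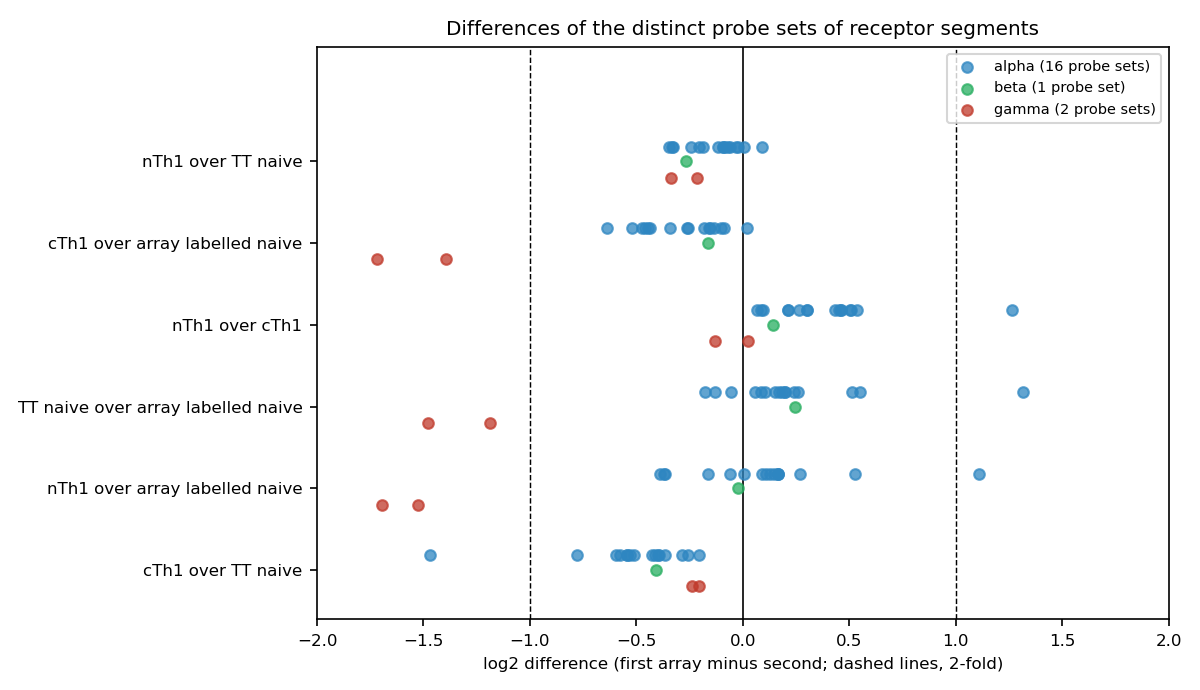
Log2 difference of each distinct probe set of the receptor segments (horizontal axis, first array minus second) in the 6 comparisons (rows), with alpha in blue, beta in green and gamma in red. Dashed lines mark 2-fold. The gamma points lie left of the line in each comparison with the array labelled naive, and all 16 alpha points lie right of 0 for nTh1 over cTh1 and left of 0 for cTh1 over TT naive.

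Set against the array labelled naive, the thymic populations had alpha segments at similar or slightly higher levels. For TT naive cells 13 of 16 distinct alpha probe sets were higher, with a median of 0.18, beside 42.1% of all genes. For nTh1 cells 11 of 16 were higher, with a median of 0.12, beside 39.5% of all genes, and the count was 12 after centring. None of the 5 alpha genes was called, where 0.795% of all genes were higher by 2-fold or more in TT naive and 1.93% in nTh1. Between the thymic populations, 14 of 16 were lower in nTh1 than in TT naive cells, with a median of -0.09, beside 57.3% of all genes, and 12 of 16 after centring. These differences lay within the probe set SD of this comparison, 0.262, except for Trav3-4 at -0.35 and 2 probe sets of Trav7-4, both at -0.33. Here too that SD holds nothing of the variation between arrays. Of all genes, in nTh1 over TT naive 1.41% were higher by 2-fold or more and 1.09% lower, and 0 of the 6 members that entered were either.

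One probe set departed from the rest of its symbol. Trav9d-3 has 5 probe sets, and 17300181 was at 11.66 in nTh1, 10.39 in cTh1, 11.86 in TT naive and 10.55 on the array labelled naive. Both thymic arrays were thus more than 2-fold above both arrays of splenic origin. Its differences were 1.26 for nTh1 over cTh1, 1.31 for TT naive over the array labelled naive, 1.11 for nTh1 over that array and -1.47 for cTh1 over TT naive. For nTh1 over TT naive it was -0.21. The first 3 were called at 2-fold higher and the fourth at 2-fold lower, as were 3.81%, 0.908%, 2.15% and 3.13% of all probe sets with 1 symbol. The other 4 probe sets of Trav9d-3 spanned 0.21 to 0.40 over the 4 arrays. Among all probe sets with 1 symbol, 41 of 13924, or 0.294%, had both thymic arrays at least 2-fold above both others. This probe set was singled out after its values were seen. The next largest range among alpha probe sets was 0.78, for Trav3-4. The sources used here do not say which stretch of sequence each probe set reads. Tissue and the CIITAtg genotype differ together between the thymic and splenic arrays and cannot be told apart.

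Probe sets of the other symbols also disagreed on the array labelled naive. For Trav12-2, nTh1 over that array averaged 0.03 ± 0.37 (SD, n = 4 distinct probe sets), between -0.37 and 0.53. For Trav7-4 the same difference averaged -0.13 ± 0.28 (SD, n = 3 probe sets), and for Trav14d-3-dv8 it averaged 0.00 ± 0.33 (SD, n = 3 probe sets). For these 3 symbols the sign for nTh1 over the array labelled naive thus depended on the probe set read. For cTh1 over that array the differences of Trav14d-3-dv8, between -0.64 and -0.18, and of Trav7-4, between -0.47 and -0.26, were negative on each probe set. Trav9d-3 was negative on all 5 probe sets for cTh1 over that array, and positive on all 5 for nTh1 and for TT naive. For cTh1 over TT naive cells each probe set of these 4 symbols had a negative difference.

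**Figure D4:**
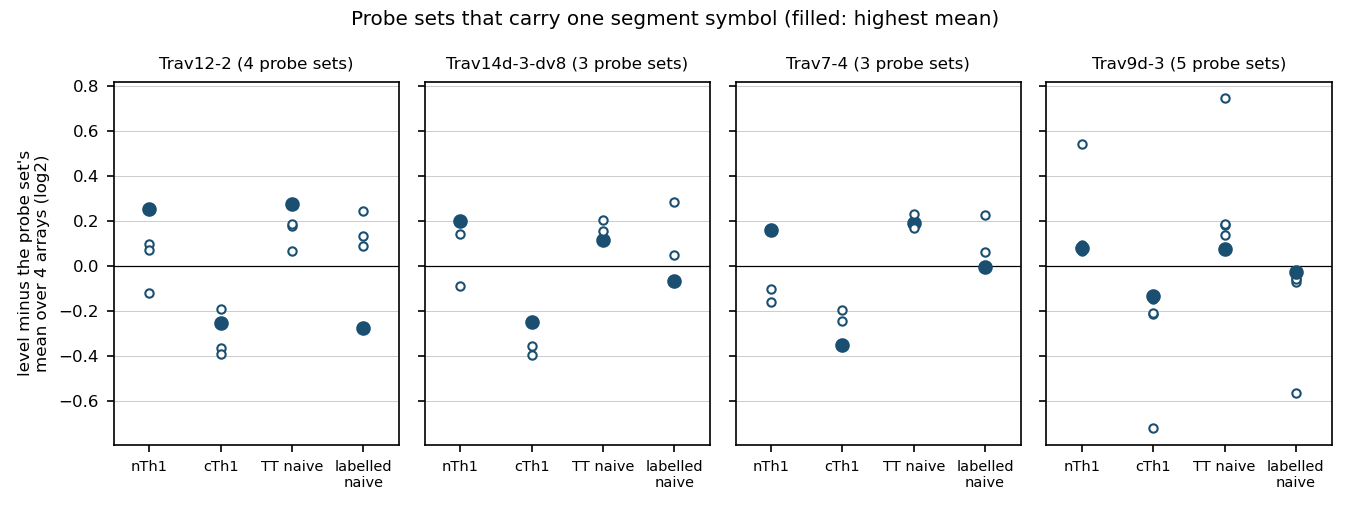
Level of each distinct probe set minus its own mean over the 4 arrays (vertical axis, log2) for the 4 symbols with more than 1 probe set, by array (horizontal axis). Filled points are the probe sets with the highest mean, and open points the others. In Trav9d-3 a single open point per array, probe set 17300181, lies apart in each column, and in Trav12-2 the filled point lies below the open ones on the array labelled naive.

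The beta chain was represented by Trbv13-2, a V segment long known as Vβ8.2. In the mouse it is among the beta segments that invariant NKT cells pair with their fixed alpha chain of Trav11 and Traj18, and conventional T cells use it widely too. Trbv13-2 was at 11.83 in nTh1, 11.69 in cTh1, 12.10 in TT naive and 11.85 on the array labelled naive. TT naive was the highest and cTh1 the lowest, and the range was 0.41. The difference was -0.27 for nTh1 over TT naive, -0.22 after centring and -0.23 with a loess trend removed. The SD between probe sets was 0.262 in this comparison. That SD comes from other genes, because Trbv13-2 has 1 probe set, and it holds nothing of the variation between arrays. The difference was -0.02 for nTh1 over the array labelled naive, and 0.08 after centring. The array labelled naive was within 0.25 of every other array for this segment. Of the 8 listed segments of the invariant NKT receptor and the 5 of the MAIT receptor, Trbv13-2 was the 1 measured, so the defining alpha segments were not analysed here.

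Genes that carry and transmit the receptor signal differed little between the arrays. Of 26 listed, 22 were measured, all above the filter on all 4 arrays, and the others were not analysed here. In 5 of the 6 comparisons 0 of 22 reached 2-fold. In cTh1 over the array labelled naive 1 did, Themis, a signalling adaptor of thymocyte selection, at 1.33, where 5.13% of all genes were at least 2-fold higher. Themis was at 11.19 in nTh1, 11.73 in cTh1, 10.99 in TT naive and 10.40 on the array labelled naive. List medians lay between -0.11 for cTh1 over TT naive and 0.17 for nTh1 over the array labelled naive, beside medians of 0.03 and -0.04 over all genes measured.

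Of the CD3 subunits, Cd3d and Cd3e were highest in cTh1, where most alpha segments were lowest. Cd3g was at 12.96 in nTh1, 12.94 in cTh1, 13.06 in TT naive and 12.98 on the array labelled naive, lowest in cTh1 by a small margin with a range of 0.12. Cd3d was at 10.86, 11.68, 11.19 and 11.48 in that order. Cd3d was the largest difference of the list for nTh1 over cTh1, at -0.82, and so opposite in sign to the alpha segments. Vav1, an exchange factor, followed at 0.66, the adaptor Trat1 at 0.59 and Themis at -0.54. For cTh1 over TT naive the largest were Ptpn22, a phosphatase that restrains the signal, at 0.78, Themis at 0.74, Vav1 at -0.66 and Cd5, an inhibitory coreceptor, at -0.58. For nTh1 over TT naive they were Ptpn22 at 0.64, Cd5 at -0.54, Cd2 at -0.35 and Cd3d at -0.33. Against the array labelled naive, Ubash3a, another negative regulator, was higher by 0.69 in nTh1, 0.66 in cTh1 and 0.70 in TT naive. Other large values against that array were Themis at 0.80 in nTh1 and 0.60 in TT naive, the adaptor Grap2 at 0.65 and 0.48, Plcg1 at 0.41 in TT naive, Cd3d at -0.62 in nTh1, and Ptpn22 at 0.69 and Cd5 at -0.60 in cTh1.

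Genes of receptor rearrangement differed chiefly by Dntt, the terminal transferase. Of 15 listed, 12 were measured and 11 were above the filter on every array. Dntt was at 9.47 in nTh1, 8.58 in cTh1, 7.46 in TT naive and 6.87 on the array labelled naive. It was the 1 member at least 2-fold higher for nTh1 over TT naive (2.01), cTh1 over the array labelled naive (1.71), nTh1 over the array labelled naive (2.60) and cTh1 over TT naive (1.12). Of all genes 1.41%, 5.13%, 1.93% and 7.24% were higher by that much in the same order, beside 1 of the 11 members that entered. For nTh1 over cTh1 the 1 member called was Prkdc, the DNA-dependent protein kinase of end joining, at 1.13, beside 3.46% of all genes, and Dntt differed by 0.89. Rag2, which encodes a subunit of the recombinase, was at 6.19 in nTh1, 4.98 in cTh1, 5.38 in TT naive and 5.21 on the array labelled naive, below the filter on all 4. In nTh1 it was higher by 1.21 than in cTh1, the largest difference of the list there. It was higher by 0.99 than on the array labelled naive and by 0.81 than in TT naive. These differences rest on dim signal and entered no count. No member was at least 2-fold lower in any comparison.

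Dntt and Prkdc apart, the genes of the rearrangement list above the filter differed by less than 2-fold. For nTh1 over TT naive, Tcf12, an E protein, differed by 0.66 and Ptcra, the surrogate alpha chain, by 0.58. Tcf12 also differed by 0.73 for nTh1 over cTh1. Xrcc5, a subunit of the Ku end-binding complex, differed by -0.62 in cTh1 and -0.66 in nTh1 against the array labelled naive, and Nhej1, an end-joining factor, by -0.50 and -0.64. Prkdc differed by -0.53 in cTh1 against that array and by -0.88 for cTh1 over TT naive. In the last comparison Cd1d1, which presents lipids to NKT cells, was at -0.58 and Xrcc6, the partner of Xrcc5, at -0.55. For TT naive over the array labelled naive the largest were Dntt at 0.59, Prkdc at 0.35, Nhej1 at -0.34 and Cd1d1 at 0.32. List medians ran from -0.28 for cTh1 over the array labelled naive to 0.36 for nTh1 over cTh1, beside -0.01 and -0.03 over all genes measured. The 10 myeloid markers averaged 7.92 in nTh1, 6.95 in cTh1, 6.47 in TT naive and 7.47 on the array labelled naive. Of the 9 that entered nTh1 over TT naive, 7 were at least 2-fold higher and 0 lower, beside 1.41% of all genes higher. Itgam went the other way, at -0.64. This list was chosen with earlier results of these data known, so the count is a description. The part of other cells in the nTh1 values was not tested.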

How the data were processed

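RNA of 4 populations was hybridised to Affymetrix arrays, 1 array each, from 300 ng of total RNA per the labels' protocols. Per the submitters' processing notes, RMA was run in Affymetrix Expression Console 1.3.1, and the authors deposited 1 log2 value per probe set and array. The sources used here do not give the annotation version or build. All 4 columns were matched by sample identifier, with 0 missing values among 41345 probe sets. Probe sets were named from the platform annotation, in which 1814 carried several symbols and 16010 none. All 8 members matched a gene ID and symbol in RefSeq's table of GRCm38.p6, used for names and neighbours only.

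Log2 differences between arrays were counted at 2-fold. The SD between probe sets was pooled over genes with at least 2 probe sets with distinct values above the filter. All 8 members, the measured genes of the segment and γδ lists, and the 4 largest differences per comparison in the receptor complex and rearrangement lists were named. Members and lists were chosen with earlier results of these data known, and the counts on thymic against splenic arrays and of genes highest on the array labelled naive were added after the values were seen. Counting was tested on simulated data with planted changes. These were larger than the threshold and lay on genes above the median, so the test checks the counting step and not the calls made here. Alternatives were 8 planned and 2 added after seeing the data. Python 3.11.15, numpy 2.4.6, pandas 2.3.3, statsmodels 0.14.6 and matplotlib 3.10.9 were used. Precision is limited by the number of arrays.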

Additional observations from a re-analysis of the deposited data

How the results depend on the processing

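Counts of members at 2-fold depended on the level filter and on the probe set read. Without a level filter, 2 members in place of 1 were lower in cTh1, in TT naive and in nTh1 than on the array labelled naive, because Trgv5 then entered. When the filter was raised to the 75th percentile, 0 were lower in each of these comparisons, because Trgv6 lay under it. With a 3-fold threshold, 0 were lower for TT naive over the array labelled naive. When each probe set was counted, or the probe set with the lowest mean was read, both chosen after seeing the data, 1 was higher for nTh1 over cTh1, TT naive over the array labelled naive and nTh1 over the array labelled naive, and 1 was lower for cTh1 over TT naive, in place of 0. That 1 is probe set 17300181 of Trav9d-3. Centring, removal of a loess trend and the mean of all probe sets of a symbol left all 12 counts as they were. Leaving out joining segments changed nothing, because 0 were members, and 0 probe sets had several symbols that were all members. Centring shifted all genes by at most 0.10. Of 48 single differences, 3 changed sign after centring, none of them over 0.03 in size, 5 with the mean of all probe sets, up to 0.27 in size, and 9 with the probe set of the lowest mean, up to 0.55. No paired analysis was possible because each group has 1 array. The gamma segments lie near or under the median of all values, where array signal limits what can be read.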

Other observations

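One further probe set pairs an alpha segment, Trav3n-3, with the unrelated symbol A430107P09Rik and therefore named no member. It was at 11.79 in nTh1, 11.32 in cTh1, 11.75 in TT naive and 11.65 on the array labelled naive, so cTh1 was again the lowest array, with a range of 0.47.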
